A study of Danio rerio with 15 samples.

Results

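Claudins are small membrane proteins that polymerise into the strands of tight junctions, the seals between neighbouring epithelial or endothelial cells. Some claudins close the space between cells to ions and others form ion-selective pores in it, so the set that a cell makes fixes how leaky its epithelium is. In the mammalian kidney each stretch of the nephron carries its own set, with pore-forming claudins in proximal tubules and claudins 3, 4, 7 and 8 in distal tubules and collecting ducts. Teleost fish carry many more claudin genes than mammals, several of them in tandem arrays.

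The claudin genes were described here in RNA sequencing counts from pronephric ducts, the tubes that drain the larval zebrafish kidney, at 72 h post fertilization (hpf). There were 8 libraries from homozygous mutants made by CRISPR/Cas9 and labelled as knockouts of actl6a, a gene of the SWI/SNF chromatin remodellers, and 7 libraries from siblings, labelled as wild type. Libraries are called mutant 1 to 8 and sibling 1 to 7 by their labelled replicate number. Both groups came from incrosses of carriers in a transgenic Na, K-ATPase alpha1A4:GFP line, whose pronephric epithelium is green, and in each group 15 embryos were digested with collagenase and green duct fragments were picked by eye. The labels do not say whether heterozygotes were among the siblings, nor whether libraries came from separate clutches, so that p-values measure the spread between these libraries, which may in part be technical.

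A member was any row whose RefSeq accession, with the version ignored, belonged to a zebrafish symbol beginning with cldn. Symbols beginning with cldnd were dropped, and for each symbol the accession with the highest summed count was kept. This gave 36 claudin genes of 18545 genes with a symbol. The dropped symbols were cldnd1a and cldnd1b, claudin domain genes, and cldnd, which is itself a claudin. The level of cldnd was 37.2 ± 23.4 CPM (counts scaled to library size; SD, n = 8) in mutants and 34.5 ± 16.0 CPM (SD, n = 7) in siblings, with an edgeR adjusted p of 0.918. The gene table names 45 claudins by this rule, and the other 9 are not analysed here.

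Total counts per library ran from 1583052 to 4013852, and 1 count was worth 0.249 to 0.632 CPM. The groups were sequenced under separate indexes, so that index and genotype cannot be told apart. Mutants 4, 5, 6 and 8 stood apart from the rest, with 25684 to 27413 detected accessions against 18188 to 21970 in the other mutants and 18841 to 23992 in siblings. They were also the deepest mutants, with 2623014 to 4013852 counts against 1583052 to 2274156 in the other mutants. Sibling 1, at 3084051 counts, was the deepest sibling and had the most detected accessions among siblings. The part of depth in this split was not tested. The targeted gene actl6a was lower in mutants, at 24.9 ± 11.5 CPM (SD, n = 8) against 84.2 ± 10.9 CPM (SD, n = 7) in siblings, with no overlap between the groups.

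Of the 36 claudins, 25 passed the filter on low counts and were tested. Of these, 5 were higher in mutants at an edgeR adjusted p under 0.05 (cldn15la, cldn1, cldni, cldna and cldn7a), 1 was lower (cldn34a) and 19 did not pass. Among all 12914 accessions tested, 13.6% were called higher and 5.53% lower (19.2% in either direction), against 20% and 4% of the tested claudins, so that the share of claudins called was near the background. The median log2 fold change was 0.27 over the tested claudins and 0.04 over all tested accessions. The genes that passed held 11.2% of the family's 152232 counts. Every mutant library lay above every sibling for 2 claudins, cldn15la and cldn1, a pattern found in 1.57% of all tested accessions. Both had few or no counts in most siblings and passed the filter on low counts through the mutants. The lack of overlap is thus in part built in and is not further support. No claudin had every mutant below every sibling, which held for 0.736% of all tested accessions.

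**Figure D1:**
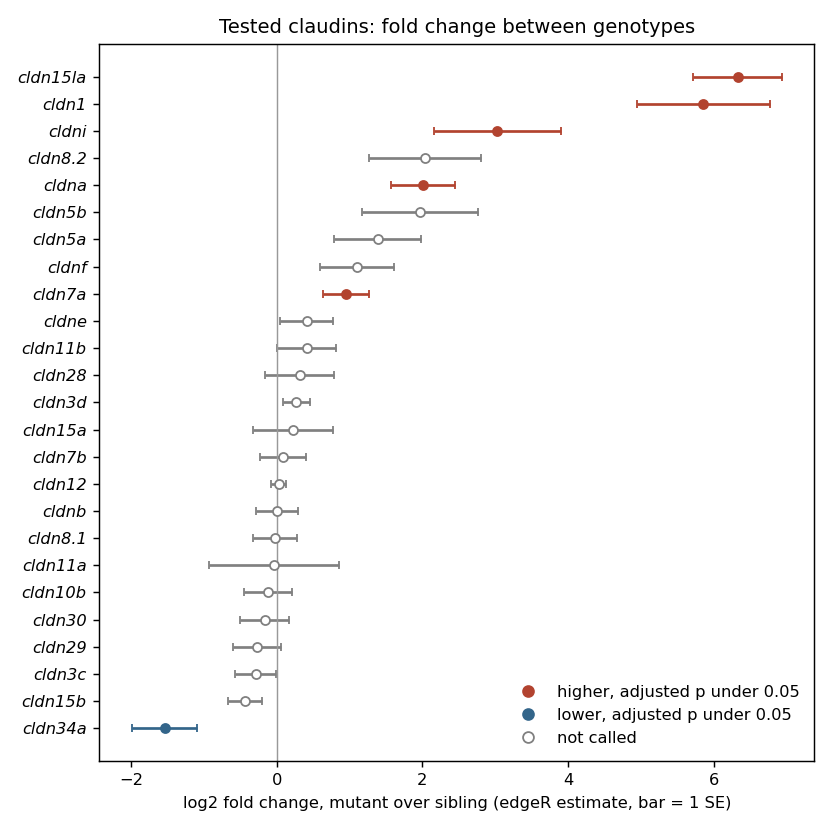
Log2 fold change of mutants over siblings (x axis, edgeR estimate) for the 25 tested claudins, with bars of 1 standard error and filled points where the adjusted p was under 0.05. cldn15la at 6.33 and cldn1 at 5.86 lie far to the right, cldn34a at -1.54 lies far to the left, and 4 members with open points, cldn8.2, cldn5b, cldn5a and cldnf, lie between 1.11 and 2.04.

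cldn15la encodes a claudin-15-like protein whose gene region is used to drive reporters in the zebrafish intestinal epithelium. Its level (NM_131771.2) was 62.8, 114, 137, 543, 339.5, 418, 159 and 384 CPM in mutants 1 to 8, against 0.601, 1.55, 0, 8.76, 5.32, 7.34 and 0.502 CPM in siblings 1 to 7. All mutants lay above all siblings, and the 4 highest mutants were replicates 4, 5, 6 and 8. The raw count was 85 to 2196 in mutants and 0 to 21 in siblings, at or under 3 counts in 4 of 7 siblings. The group means were 269.8 ± 174 CPM (SD, n = 8) in mutants and 3.44 ± 3.63 CPM (SD, n = 7) in siblings, with a log2 change of 6.33 (SE 0.61, adjusted p = 3.52e-06 in edgeR). Without mutants 4, 5, 6 and 8 it was 5.09 (SE 0.44, adjusted p = 8.00e-06 in edgeR). At such low sibling counts the size of this fold change is imprecise.

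The paralog cldn15lb did not pass the filter on low counts with all libraries. It was at 0.738, 2.79, 5.44, 34.9, 32.7, 35.4, 5.13 and 27.2 CPM in mutants 1 to 8, against 0, 0, 1.08, 1.25, 1.33, 0.489 and 2.51 CPM in siblings 1 to 7. In 7 of 8 mutants it lay above every sibling, and again replicates 4, 5, 6 and 8 were the highest. In the fit with no filter on low counts its log2 fold change was 4.37 (SE 0.69, adjusted p = 6.49e-05 in edgeR), and DESeq2 gave 4.28. Without sibling 2, 3, 5, 6 or 7 it passed the filter, which asks for fewer libraries when the smaller group shrinks. It passed there through the mutants in which it was high, so that these fits are not further support. In them its log2 fold change was 4.22 to 4.86 (adjusted p of 0.00101 to 0.00120 in edgeR).

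The other claudin-15 genes did not pass the test. cldn15a, which is needed for the zebrafish gut to open into a single lumen, was at 22.9 to 229 CPM in mutants (median 119) and 11.04 to 222 CPM in siblings (median 117), with a log2 change of 0.22 (SE 0.55, adjusted p = 0.800 in edgeR). It varied widely within each group, and siblings 3, 5 and 7, at 13.6, 32.6 and 11.04 CPM, lay below the other siblings. cldn15b was at 13.3 to 53.4 CPM in mutants (median 38.3) and 33.6 to 69.5 CPM in siblings (median 54.3), with a log2 change of -0.43 (SE 0.24, adjusted p = 0.210 in edgeR). With detected accessions as a term it was called lower (-0.98, adjusted p = 0.00827 in edgeR).

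Genes of the intestine were measured as a list without claudins, because gut lies beside the duct in the larva. Of 27 genes, 22 had a row and 13 were tested, of which edgeR called 7 higher in mutants and 0 lower, with a median log2 fold change of 1.80. Among all accessions edgeR called 13.6% higher and 5.53% lower, DESeq2 3378 and 899 of 24094, and limma 3081 and 2485 of 12914. At an unadjusted p under 0.05, and in DESeq2 and limma, 0 genes of the list were lower. Its summed level was 853 to 4292 CPM in mutants (median 1032) and 413 to 735 CPM in siblings (median 470.4), with all 8 mutants above every sibling. apobb.1, cdhr5b and mep1a.2 had 0 counts in every sibling. Of all 33298 accessions, 29112 were listed for siblings, and those not listed had 0 counts there. These 3 genes of 22 are therefore not read as a result about the list. Its most abundant members were agr2, a secretory cell chaperone gene at 159.7 to 616 CPM in mutants and 208 to 509.8 CPM in siblings, and fabp2, an enterocyte fatty acid carrier at 142 to 1123 CPM in mutants and 61.1 to 169 CPM in siblings. agr2 did not pass the test, while fabp2 was higher, as were fabp1b.1, fabp6, apoa4b.1 and apoa1a, genes of lipid and bile acid handling, and cdx1a and cdx1b, gut transcription factors. Like cldn15la, fabp1b.1 was nearly absent from siblings, at 95.2 to 1337 CPM in mutants and 0 to 2.10 CPM in siblings. The part of intestinal RNA in the cldn15la result was not tested. In these bulk samples, more cells of a type and more RNA per cell cannot be told apart.

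cldn1, cldni and cldna were also higher in mutants. In mice claudin 1 is required for the water barrier of the skin, and zebrafish cldni is expressed in the epidermis. cldn1 (NM_131770.1) was at 12.6, 20.9, 55.8, 77.2, 18.9, 277, 265 and 40.2 CPM in mutants 1 to 8, against 0, 0, 3.25, 0.417, 0, 0 and 8.53 CPM in siblings 1 to 7. All mutants lay above all siblings, mutants 6 and 7 were the highest, and 4 siblings had 0 counts. Its log2 fold change was 5.86 (SE 0.91, adjusted p = 0.000154 in edgeR), from means of 96.01 ± 110.3 CPM (SD, n = 8) in mutants and 1.74 ± 3.22 CPM (SD, n = 7) in siblings. Without mutants 4, 5, 6 and 8 it was 5.75 (SE 0.90, adjusted p = 0.000762 in edgeR), and without sibling 7 it was 7.28 (adjusted p = 0.000517 in edgeR), so that its size is imprecise.

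The level of cldni (NM_131768.2) was 98.2, 218, 159.6, 198, 53.8, 670.1, 821 and 61.1 CPM in mutants 1 to 8, against 3.61, 3.11, 80.2, 6.68, 0.665, 5.38 and 149 CPM in siblings 1 to 7. The groups overlapped: 5 of 8 mutants lay above every sibling, and siblings 3 and 7 lay within the mutant range. As for cldn1, mutants 6 and 7 were the highest mutants and siblings 7 and 3 the highest of theirs. In log2 its fold change was 3.03 (SE 0.87, adjusted p = 0.0235 in edgeR), with 285 ± 293 CPM (SD, n = 8) in mutants and 35.5 ± 57.6 CPM (SD, n = 7) in siblings. The call was lost without mutant 6 (2.68, adjusted p = 0.0528 in edgeR) and without mutants 4, 5, 6 and 8 (3.21, adjusted p = 0.0890 in edgeR), and without sibling 7 the value was 4.10. It was also lost with no filter on low counts (2.94, adjusted p = 0.0663 in edgeR), with the number of detected accessions as a term in the fit (3.50, 0.0739) and with the summed erythrocyte and endothelium lists as a term (4.07, 0.0909 for the adjusted p). Both of those lists were lower in every sibling but sibling 1 than in every mutant. Detected accessions were highest in mutants 4, 5, 6 and 8. Fits with these terms, here and below, thus cannot fully separate them from genotype.

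cldna (NM_131762.2) was at 25.1, 19.5, 12.7, 28.7, 21.1, 39.9, 52.3 and 8.17 CPM in mutants 1 to 8, against 1.50, 7.25, 6.51, 12.1, 7.31, 4.40 and 6.52 CPM in siblings 1 to 7. Only mutant 8 lay within the sibling range, and mutants 6 and 7 were again the highest. The means were 25.9 ± 14.4 CPM (SD, n = 8) in mutants and 6.51 ± 3.21 CPM (SD, n = 7) in siblings, a log2 change of 2.02 (SE 0.44, adjusted p = 0.00498 in edgeR). It was 2.08 (adjusted p = 0.0312 in edgeR) without mutants 4, 5, 6 and 8.

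In the gene table of the GRCz12tu assembly, used only for names, order and overlap of spans, cldna stands at the end of 4 claudin genes in a row, after cldnj, cldne and cldnf. cldnf was at 14.2 to 138 CPM in mutants (median 84.9) and 9.32 to 94.9 CPM in siblings (median 35.5), with a log2 change of 1.11 (SE 0.51, adjusted p = 0.136 in edgeR). cldne was at 424, 373, 482, 159.6, 146, 373, 346 and 96.5 CPM in mutants 1 to 8, against 92.6, 102, 419, 193, 251, 249.9 and 266 CPM in siblings 1 to 7. Its groups overlapped through most of their range, with a log2 change of 0.41 (SE 0.37, adjusted p = 0.455 in edgeR). cldnj, needed for otolith formation in the zebrafish ear, had at most 8 counts in a mutant and 7 in a sibling and was not tested. Adjacent genes of this array thus gave 1 call and 2 members that did not pass, and the differences between them were not tested.

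In the epidermis list edgeR called 8 genes higher and 0 lower among 16 tested (19 of 23 genes had a row), with a median log2 fold change of 1.97. Among all tested accessions edgeR called 13.6% higher and 5.53% lower. In the list 11 were higher and 1 lower at an unadjusted p under 0.05, 13 and 1 in DESeq2, and 9 and 1 in limma. Among all accessions DESeq2 called 3378 higher and 899 lower of 24094, and limma 3081 and 2485 of 12914. Its summed level was 1705 to 12294 CPM in mutants (median 2857) and 569 to 2874 CPM in siblings (median 1006), with 4 of 8 mutants above every sibling and no gene at 0 throughout a group. The 3 highest mutants on this sum were replicates 6, 4 and 7, at 12294, 5939 and 5502 CPM. Sibling 6 had the highest epidermis sum among siblings, at 2874 CPM, with no count of cldn1 and 5.38 CPM of cldni. The most abundant genes of the list, krt4 and icn, genes of skin keratinocytes, were both called higher, with krt5, krt91, krt92, cyt1, cyt1l and tp63. With the epidermis sum as a term in the fit, cldn1 was at 2.91 (adjusted p = 0.111 in edgeR), cldna at 1.25 (0.397) and cldni at 0.81 (0.800 for the adjusted p), and none was called. cldn15la alone among the claudins was still called in that fit, in which only 113 of all tested accessions passed. The epidermis sum itself tended to be higher in mutants, so that this fit cannot separate it from genotype. The targeted gene actl6a was not called in it either. The part of epidermal RNA in these results was not tested.

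**Figure D2:**
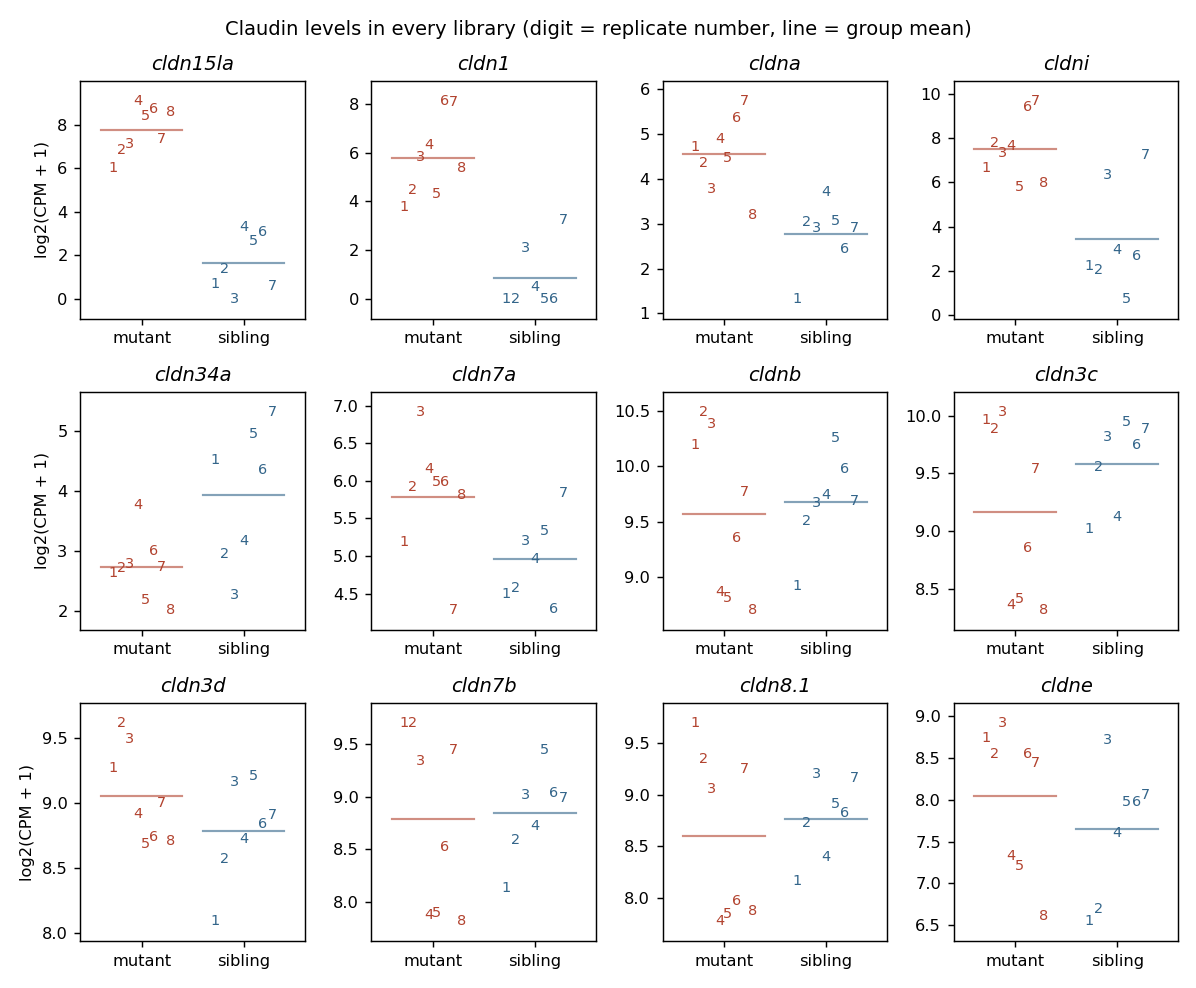
Level of 12 claudins in each library on the log2(CPM + 1) scale, mutants at the left and siblings at the right of each panel, with digits for replicate numbers and lines for group means. The groups are separate for cldn15la and cldn1, and mutants 4, 5 and 8 are the lowest libraries for cldnb and cldn7b and among the lowest for cldn3c and cldn8.1.

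cldn7a and cldn7b are copies of the gene for claudin 7, a claudin of distal nephron, gut and other epithelia in mammals. cldn7a (NM_001002340.1) was at 35.4, 59.3, 119.7, 70.5, 62.1, 62.1, 18.5 and 55.1 CPM in mutants 1 to 8, against 21.6, 22.8, 35.8, 30.0, 39.2, 18.6 and 56.2 CPM in siblings 1 to 7. In 5 of 8 mutants it lay above every sibling, and mutant 7 lay below every sibling. With means of 60.3 ± 29.4 CPM (SD, n = 8) in mutants and 32.0 ± 13.1 CPM (SD, n = 7) in siblings, its log2 fold change was 0.95 (SE 0.32, adjusted p = 0.0475 in edgeR), just past the threshold. The call was lost in 12 of the 15 fits that left out 1 library, with an adjusted p of up to 0.111. DESeq2 did not call it (0.90, adjusted p = 0.0523), nor did edgeR with no filter on low counts (0.86, 0.0602) or with detected accessions as a term (0.93, 0.142). limma with voom quality weights called it (1.02, adjusted p = 0.0117).

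cldn7b (NM_131637.1) did not pass. It was at 828, 829.7, 648, 235, 237, 367, 696 and 225 CPM in mutants 1 to 8, against 280.2, 383, 518, 422, 694, 525 and 507 CPM in siblings 1 to 7. Mutants lay on both sides of the siblings, 3 above every sibling and 3 below. Its log2 fold change was 0.09, with a 95% interval of -0.53 to 0.70. Whether cldn7a and cldn7b differed in their change was not tested.

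cldn34a (XM_692189.9) was the only claudin called lower. It was at 5.17, 5.58, 5.89, 12.6, 3.51, 6.99, 5.64 and 3.03 CPM in mutants 1 to 8, against 21.9, 6.74, 3.80, 7.93, 29.9, 19.6 and 39.1 CPM in siblings 1 to 7. The difference lay mostly in siblings 1, 5, 6 and 7, which were above every mutant, while the other siblings lay within the mutant range. The log2 fold change was -1.54 (SE 0.45, adjusted p = 0.0255 in edgeR), from 6.05 ± 2.95 CPM (SD, n = 8) in mutants and 18.4 ± 13.1 CPM (SD, n = 7) in siblings. It lost its call without mutant 5 (-1.45, adjusted p = 0.0510 in edgeR) or mutant 8 (-1.44, 0.0523), and without mutants 4, 5, 6 and 8 (-1.74, 0.142 for the adjusted p). It was lost too with detected accessions as a term (-1.68, adjusted p = 0.0758 in edgeR) and with the erythrocyte and endothelium sum as a term (-1.73, 0.101 for the adjusted p). Its neighbour in the gene table, cldn33b, had 1 count in mutants at most and 7 in siblings at most.

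The 6 claudins with the highest mean CPM were cldnb, cldn3c, cldn3d, cldn7b, cldn8.1 and cldne, and they held 68.3% of the family's counts. None of them passed the test without other terms in the fit. With detected accessions as a term, edgeR called cldn3d (0.56, adjusted p = 0.0383), cldn7b (0.63, 0.0398) and cldn8.1 (0.51, 0.0282) higher. With the erythrocyte and endothelium sum as a term it called cldnb (0.80, adjusted p = 0.0414), cldn3d (0.82, 0.00818), cldn7b (0.90, 0.0410) and cldne (1.38, 0.0467) higher. As given for cldni, neither term can be fully separated from genotype, so that these calls are not read as changes by genotype. limma with voom quality weights called cldn3c lower (-0.80, adjusted p = 0.0183). Levels of different genes are not compared here, because the values are not per transcript length. cldnb, whose promoter drives a reporter in the migrating lateral line primordium and other epithelia, was at 1168, 1442, 1333, 464, 448, 653, 869 and 414 CPM in mutants 1 to 8, against 481, 724, 813, 856, 1223, 1008 and 822 CPM in siblings 1 to 7. Mutants 4, 5 and 8 lay below every sibling and mutants 2 and 3 above. In log2 its fold change was 0.00, with a 95% interval of -0.56 to 0.56.

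cldn3c, related to mammalian claudin 3, showed a similar arrangement of libraries. It was at 998, 945, 1046, 327, 339.8, 462, 741 and 318 CPM in mutants 1 to 8, against 517, 753, 901, 558, 983, 859 and 945 CPM in siblings 1 to 7. Mutants 4, 5, 6 and 8 all lay below every sibling. Its log2 fold change was -0.29 (95% interval -0.85 to 0.27), and without those 4 libraries it was 0.20 (adjusted p = 0.558 in edgeR). cldn3d was at 613, 781, 718, 481, 409.8, 425, 510.0 and 417 CPM in mutants 1 to 8, against 272, 379.8, 571, 421, 588, 457 and 479 CPM in siblings 1 to 7. In log2 its fold change was 0.27 (95% interval -0.10 to 0.63), with 3 of 8 mutants above every sibling and none below.

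cldn8.1, one of several zebrafish relatives of claudin 8, a claudin of the mammalian distal nephron, was at 827, 649.6, 530.0, 217, 229, 249.7, 607 and 233 CPM in mutants 1 to 8, against 284, 423, 587, 335, 479, 451 and 572 CPM in siblings 1 to 7. The mutants below every sibling were replicates 4, 5, 6 and 8, and those above were replicates 1, 2 and 7. Its log2 fold change was -0.02 (95% interval -0.62 to 0.57), and without those 4 low libraries it was 0.50 (adjusted p = 0.146 in edgeR). cldn10b, whose mammalian counterpart serves ion transport in kidney tubules, showed the same arrangement at 379, 345, 278, 75.5, 111, 111, 305 and 114 CPM in mutants 1 to 8, against 156 to 290.1 CPM in siblings. In log2 its fold change was -0.12 (95% interval -0.76 to 0.53). The span of cldn10b overlaps that of cldn10l2 in the gene table, which is of another assembly than the counts. Whether reads were shared was not tested, so that the values of cldn10b are uncertain. cldn10l2 itself matched no row.

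The summed level of pronephros genes, a list of tubule as well as duct genes, was low in the same mutant libraries. The pronephros list, of which 20 of 25 genes had a row, summed to 6372, 5423, 4829, 2209, 2795, 2540.2, 5162 and 2600.4 CPM in mutants 1 to 8, against 4607 to 6563 CPM in siblings. Mutants 4, 5, 6 and 8 lay below every sibling and the other mutants within the sibling range. Of its 18 tested genes 3 were lower (slc20a1a, slc5a12 and slc13a1) and 0 higher by edgeR, with a median log2 fold change of -0.31, and its most abundant genes, atp1a1a.4 and cdh17, did not pass. Of all tested accessions edgeR called 5.53% lower and 13.6% higher. In the list the higher count was 0 at an unadjusted p under 0.05, 1 in DESeq2 and 1 in limma. There limma called 10 lower, beside 2485 of all 12914 accessions. gata3 had 0 counts in every sibling, as had all accessions not listed for siblings (29112 of 33298 were listed).

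The highest count of any accession was 5558 to 6432 in each library, although total counts differed by much more. The counts of cldnb were 1369 to 2940 in mutants and 1398 to 2061 in siblings, and those of cldn3c 1051 to 2308 in mutants and 1337 to 1883 in siblings. The part that the RNA of the pronephros list, or any limit on high counts, had in the low CPM of these claudins in mutants 4, 5, 6 and 8 was not tested.

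The genes cldn3c, cldn3d and cldnb belong to the longest array of the family, 7 claudin genes in a row that continues with cldn29, cldnd, cldn28 and cldn30. None of its members passed the test. cldn29 was at 35.4 to 153 CPM in mutants and 47.8 to 124 CPM in siblings, with a log2 fold change of -0.27 (adjusted p = 0.598 in edgeR). cldn28 was at 6.35 to 36.7 CPM in mutants and 1.55 to 26.6 CPM in siblings, with a log2 fold change of 0.32. cldn30 had a median of 44.9 CPM in mutants and 41.2 CPM in siblings, with a log2 fold change of -0.16. In cldn29 mutants 4, 5 and 8 lay below every sibling, the arrangement seen for cldnb.

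**Figure D3:**
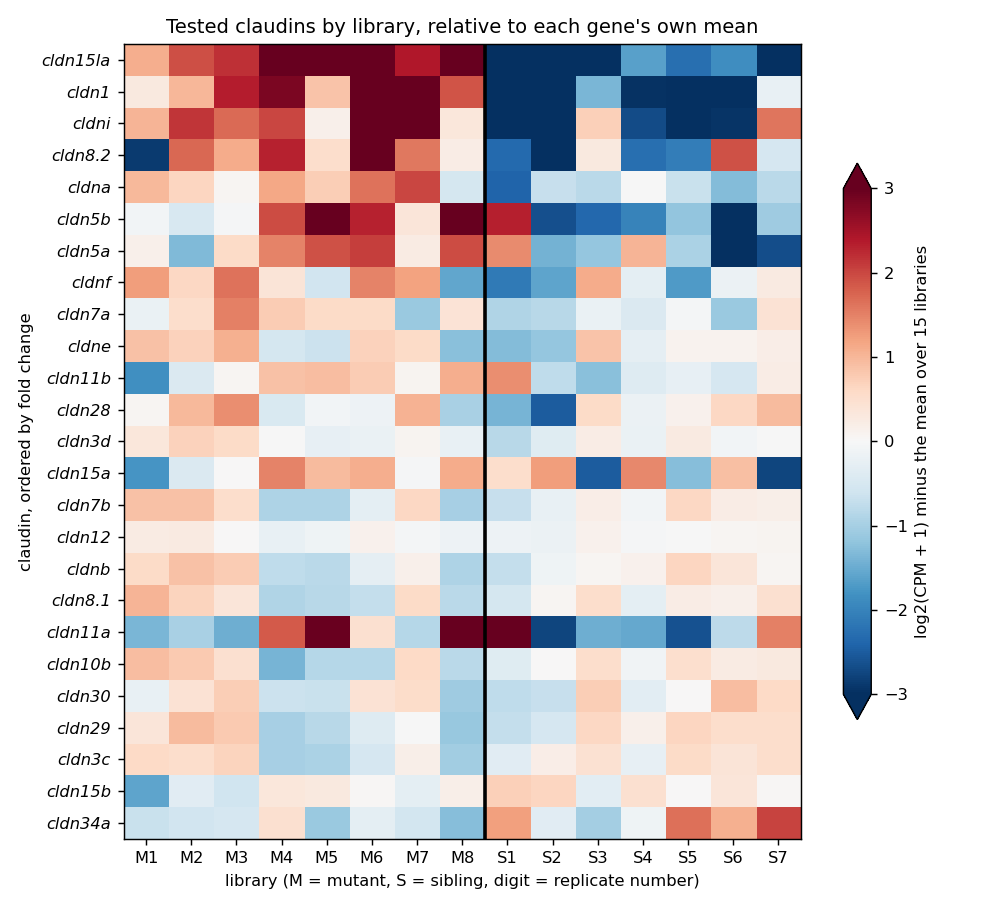
Level of the 25 tested claudins (rows, ordered by fold change) in each library (columns, mutants left of the line and siblings right of it), as log2(CPM + 1) minus the mean of the gene over the 15 libraries, with colours capped at 3 in either direction. cldnb, cldn3c, cldn7b, cldn8.1 and cldn10b are blue in M4, M5 and M8, and cldn5b and cldn11a are red in M4, M5, M8 and S1.

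cldn5a and cldn5b are copies of claudin 5, the main claudin of blood vessel endothelium in mammals, and in zebrafish cldn5b is expressed in endothelium. cldn5b was at 17.0, 12.6, 17.7, 73.2, 189, 93.8, 23.6 and 172 CPM in mutants 1 to 8, against 95.3, 2.07, 2.71, 3.76, 7.31, 0.489 and 8.03 CPM in siblings 1 to 7. Every mutant lay above every sibling other than sibling 1, which was itself higher than 6 of 8 mutants. The log2 fold change was 1.96 (SE 0.80, adjusted p = 0.0953 in edgeR), and without sibling 1 it was 4.26 (SE 0.80, adjusted p = 0.00129 in edgeR). With all libraries, limma with voom quality weights called cldn5b higher (4.35, adjusted p = 0.0152).

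For cldn5a the values were 9.60, 2.79, 13.1, 25.7, 34.8, 39.1, 10.3 and 36.0 CPM in mutants 1 to 8, against 24.4, 2.59, 3.25, 18.4, 3.99, 0 and 0.502 CPM in siblings 1 to 7. Mutants 4, 5, 6 and 8 lay above every sibling, and siblings 1, 3, 4 and 5 lay within the mutant range. Its log2 fold change was 1.39 (SE 0.60, adjusted p = 0.113 in edgeR), and 2.10 (adjusted p = 0.0268 in edgeR) without sibling 1. With all libraries, limma with voom quality weights called cldn5a higher (3.37, adjusted p = 0.00708).

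The endothelium list was high in the same libraries as cldn5b. It summed to 202, 303, 380.4, 949, 2259, 995, 396 and 1669.7 CPM in mutants 1 to 8, against 1488 CPM in sibling 1 and 89.0 to 157 CPM in the other siblings. Of 24 genes 19 had a row and 14 were tested, with 2 higher (plvapa and she) and 0 lower by edgeR and a median log2 fold change of 1.68. The edgeR share of all tested accessions called higher was 13.6%, so that 2 of 14 was near the background. At an unadjusted p under 0.05 there were 10 higher and 0 lower in the list, in DESeq2 4 and 0, and in limma 13 and 0. Among all 12914 accessions limma called 3081 higher. No gene of it was at 0 throughout a group. The part of endothelial RNA in the claudin 5 values was not tested.

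cldn11a, a copy of the claudin of myelin and testis tight junctions in mammals, was also high in mutants 4, 5 and 8 and sibling 1. It was at 2.95, 4.19, 2.72, 35.4, 78.1, 13.2, 4.62 and 82.9 CPM in mutants 1 to 8, against 159, 0.518, 2.71, 2.50, 0.665, 4.89 and 28.1 CPM in siblings 1 to 7. Sibling 1 was the highest library of all, and the log2 fold change was -0.04 (SE 0.89, adjusted p = 0.981 in edgeR). Without sibling 1 it was 2.18 (adjusted p = 0.0951 in edgeR). It was called lower with the summed erythrocyte and endothelium lists as a term (-2.54, adjusted p = 0.00744 in edgeR) and with detected accessions as a term (-2.94, 0.0310 for the adjusted p). Neither term can be fully separated from genotype. cldn11b was at 4.43 to 39.9 CPM in mutants and 7.05 to 49.9 CPM in siblings, with a log2 fold change of 0.41 (adjusted p = 0.509 in edgeR). limma with voom quality weights called cldn11b higher (1.05, adjusted p = 0.0254).

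**Figure D4:**
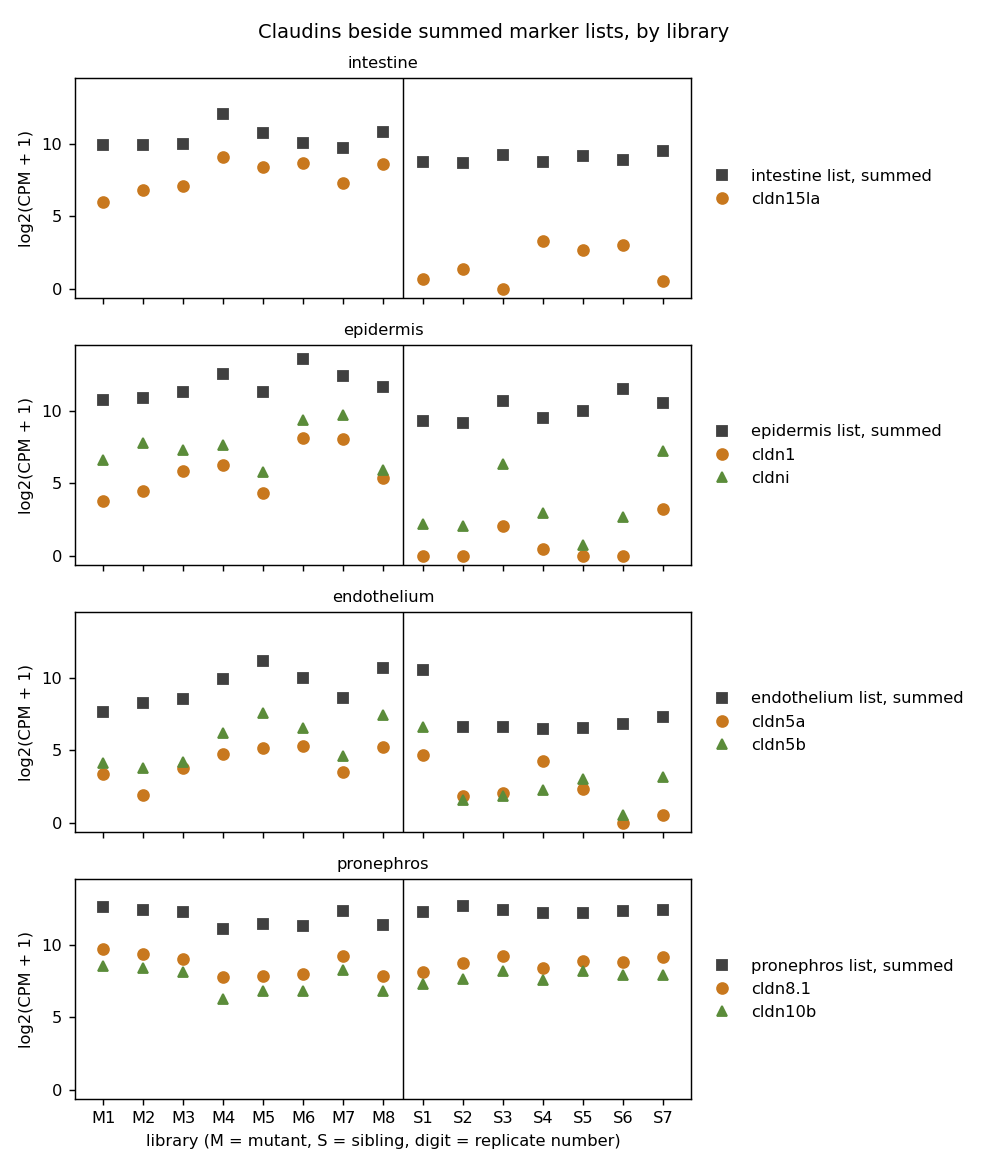
Claudins (circles and triangles) beside the summed marker list of a tissue (squares) in each library, on the log2(CPM + 1) scale, with mutants left of the line and siblings right of it. cldn5b and the endothelium list are high in S1 and in M4, M5, M6 and M8, and cldn8.1, cldn10b and the pronephros list are low in those mutants, while cldn15la is low in S1, at 0.601 CPM.

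cldn12, a broadly expressed claudin, varied little between libraries. It was at 99.2 to 142 CPM in mutants and 103 to 127 CPM in siblings, with means of 118 ± 16.0 CPM (SD, n = 8) in mutants and 116 ± 9.29 CPM (SD, n = 7) in siblings. The log2 fold change was 0.03, with a 95% interval of -0.18 to 0.23.

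The claudin 8 genes stand in a row, and the spans of cldn8.2, cldn8.3 and cldn8.1 overlap in the gene table, which is of another assembly than the counts. Whether reads were shared between them was not tested, so that their values are uncertain. cldn8.2 was at 0.738, 41.2, 26.3, 61.6, 17.3, 136, 36.9 and 13.9 CPM in mutants 1 to 8, against 1.50, 0.518, 14.6, 1.67, 1.99, 46.5 and 8.03 CPM in siblings 1 to 7. The groups overlapped, with mutant 6 and sibling 6 far above the rest of their groups and mutant 1 near the lowest siblings. The log2 fold change was 2.04 (SE 0.77, adjusted p = 0.0733 in edgeR), and the gene was called without mutant 1 (2.14, adjusted p = 0.0414 in edgeR) or without sibling 6 (3.19, adjusted p = 0.0128 in edgeR), and was at 1.45 without mutant 6. cldn8.3 did not reach the count filter, at 1.41 ± 0.69 CPM (SD, n = 8) in mutants and 5.84 ± 4.70 CPM (SD, n = 7) in siblings. Without the filter its log2 fold change was -2.11 (SE 0.53, adjusted p = 0.00757 in edgeR), and siblings 4, 5 and 6 lay within the mutant range.

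The remaining 9 members, cldn10a, cldn10d, cldn18, cldn19, cldn23l, cldn31, cldn33b, cldng and cldnj, also failed the count filter. None of these exceeded 12.3 CPM in a mutant library or 5.84 CPM in a sibling. cldn23l was at 0.738 to 12.3 CPM in mutants and 0.518 to 4.01 CPM in siblings, and it was called by DESeq2 (log2 fold change 1.55, adjusted p = 0.0438) but not by edgeR without the filter (1.51, adjusted p = 0.0557). cldn31 had a single count in 1 mutant library. For these genes a difference was mostly not detectable at this depth.

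Summed over the family, claudins made up 5096, 5540.2, 6039.6, 3715, 3476, 4712, 5638 and 3258 CPM in mutants 1 to 8, against 3099.8, 3580.1, 4635, 3655, 4435, 4621 and 4489.5 CPM in siblings 1 to 7. In 5 of 8 mutants the sum lay above every sibling. Without the members called, the sum was 2689 to 5564 CPM in mutants and 3047 to 4564 CPM in siblings, with 3 mutants above every sibling and 3 below.

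Other tight junction genes were counted from a list of scaffold, tricellular, junctional adhesion and polarity genes. Of 62 genes 39 had a row and 23 were tested, of which edgeR called 3 higher and 0 lower, a higher share of 13% beside 13.6% of all tested accessions, and the median log2 fold change was 0.23, so that the share of partner genes called was that of the background. At an unadjusted p under 0.05 there were 7 higher and 0 lower, in DESeq2 4 and 0, and in limma 8 and 1. The higher genes were jam3a, a junctional adhesion molecule, pard6gb, a polarity complex gene, and magi1b, a junctional scaffold. pard6gb was at 66.5 ± 16.1 CPM (SD, n = 8) in mutants and 40.4 ± 10.9 CPM (SD, n = 7) in siblings, with a log2 change of 0.70 (SE 0.19, adjusted p = 0.0189 in edgeR) and 6 of 8 mutants above every sibling. The log2 fold change was 1.94 for jam3a (SE 0.52, adjusted p = 0.0136 in edgeR) and 2.13 for magi1b (SE 0.66, adjusted p = 0.0323), each with 4 of 8 mutants above every sibling.

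In jam3a the 4 mutants above every sibling were replicates 3, 4, 5 and 8, and in magi1b they were replicates 4, 5, 6 and 8. magi1b lost its call in 10 of 15 fits without 1 library and pard6gb in 6 of 15. jam3a was called in the 9 such fits in which it passed the count filter. In the others it was not tested, so that these calls are not further support and cannot be set against those of magi1b and pard6gb. Without sibling 1 the log2 fold change was 3.54 for magi1b and 2.90 for jam3a, and magi1b was at 0.34 without mutants 4, 5, 6 and 8. With detected accessions as a term none of these genes was called by edgeR, at 0.97 for jam3a (adjusted p = 0.244), 0.43 for pard6gb (0.155) and 0.57 for magi1b (0.482). The same held with the erythrocyte and endothelium sum as a term, at 0.77 for jam3a, 0.37 for pard6gb and 0.54 for magi1b. Neither term can be fully separated from genotype. Occludin genes, which encode a partner of claudins in tight junction strands, did not pass: oclna was at 152 ± 56.7 CPM (SD, n = 8) in mutants and 139 ± 30.5 CPM (SD, n = 7) in siblings, and oclnb had a log2 change of -0.87 (SE 0.44, adjusted p = 0.173 in edgeR). Of the genes for the ZO scaffolds that anchor claudin tails to actin, tjp3 had a log2 change of 0.50 (SE 0.35, adjusted p = 0.328 in edgeR) and tjp2a was too rare to test. The others matched no row by accession and are not analysed here.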

How the data were processed

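Per the file headers, the 2 count tables that the authors deposited, one per sequencing index, list whole numbers by RefSeq accession with a column per barcode. Per the submitters' processing notes, cutadapt, FastQC, STAR, featureCounts and edgeR were used with the build GRCz11. Versions, strand and any use of molecular identifiers are not given in the sources used here, and floors cover counting error only.

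The tables were joined on accession, and an accession listed in 1 table had a count of 0 in the other. Symbols came from a RefSeq gene table (GRCz12tu), which matched 20452 of 33298 accessions (61.4%) when the version was ignored, holding 87.6% of counts. Tests used edgeR 4.0.16 in R 4.3.3 (filterByExpr, TMM factors, glmQLFit with robust estimation, glmQLFTest) over all accessions, with Benjamini-Hochberg adjustment and a threshold of 0.05. SE is the size of a log2 fold change over the root of its F statistic, and 95% intervals are 1.96 SE either way. That multiplier is of the normal distribution, so that the intervals are approximate and somewhat narrower than the F test implies. Levels are CPM with TMM factors, and list sums are CPM of the library total. Alternatives included DESeq2 1.42.0 and limma 3.58.1. Plots used matplotlib 3.10.9.

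Members, gene lists and tests were chosen with earlier results of these data known. All claudins could be named. Values in every library were set for cldn15la, each claudin past the threshold and the 6 with the highest mean CPM, and cldn15lb, cldn5a, cldn5b, cldn8.2, cldn10b and cldn11a were added after their values were seen. From the partner list up to 4 genes called in each direction and the ZO genes were named. From each tissue list the 2 most abundant genes could be named, as was done for the intestine, epidermis and pronephros lists. The occludin genes, the other genes called in the lists and those at 0 throughout a group were named after their values were seen.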

Additional observations from a re-analysis of the deposited data

Results flagged for a closer look

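Dixon's criterion at 95% was applied to 38 sets of libraries, which were actl6a and the claudins given in every mutant, split by genotype. It marked 6 values. About 1 in 20 sets, or 1.9 here, would be marked by chance if the genes had been chosen without regard to their values. They were not: cldn5b, cldn11a and cldn8.2, among those marked, were added after their values were seen. The 6 marks can therefore not be set against 1.9. The cldn34a level of mutant 4, at 12.6 CPM, lay above the 3.03 to 6.99 CPM of the other mutants. The cldn1 level of sibling 7, at 8.53 CPM, lay above the 0 to 3.25 CPM of the other siblings, and that library also had the highest cldni level among siblings, at 149 CPM. Sibling 1 was marked for cldn5b, at 95.3 CPM above 0.489 to 8.03 CPM in the other siblings, and for cldn11a, at 159 CPM above 0.518 to 28.1 CPM. For cldn8.2 mutant 6 was marked, at 136 CPM above 0.738 to 61.6 CPM in the other mutants, and sibling 6, at 46.5 CPM above 0.518 to 14.6 CPM in the other siblings.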

How the results depend on the processing

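Without 1 library, 3 to 6 claudins were called higher and 0 to 1 lower, and 0 to 5 partner genes higher and 0 lower, while actl6a stayed between -1.87 and -1.61. cldn15la was called in all of the fits run, cldn1 and cldna in all but the fit with the epidermis sum. Because cldn15la and cldn1 passed the count filter through the mutants, their repeated calls are not further support. Counts of genes called are not comparable between fits, because the number of all accessions called, given below, differed widely. Higher claudins numbered 8 with voom quality weights, where 3081 of all 12914 accessions were called higher and 2485 lower. These were the 5 first called, with cldn5a, cldn5b and cldn11b. They numbered 8 with the erythrocyte and endothelium sum (3 of them among the 5 claudins first called), a fit that called far fewer accessions. There were 3 without mutants 4, 5, 6 and 8, 3 at an adjusted p under 0.01 and 1 with the epidermis sum. Lower claudins numbered 2 with no filter, 2 with DESeq2, 3 with voom quality weights (cldn10b, cldn29 and cldn3c), 2 with detected accessions as a term (cldn11a and cldn15b, not cldn34a), and 0 with the replicate block, with the epidermis sum, without mutants 4, 5, 6 and 8 and at the stricter threshold. With the erythrocyte and endothelium sum the 1 lower claudin was cldn11a, not cldn34a. Partner genes called were 8 higher and 1 lower with voom quality weights, 1 higher with the replicate block, 2 with detected accessions and 4 with the erythrocyte and endothelium sum (none of them jam3a, pard6gb or magi1b), and 0 higher with the epidermis sum, without those 4 mutants and at the stricter threshold. actl6a was -1.39 with the epidermis sum (edgeR adjusted p = 0.0710). Signs of abundant claudins changed between fits, but none of them was called in the edgeR fit without other terms. There cldnb was at -0.0002 (SE 0.29), cldn8.1 at -0.02 (SE 0.30) and cldn7b at 0.09 (SE 0.31), with no clear direction. cldnb was 0.0183 with the replicate block, 0.49 with detected accessions, 0.20 with the epidermis sum, 0.80 with the erythrocyte and endothelium sum (called higher) and 0.46 without those 4 mutants. cldn3c was 0.23, 0.41 and 0.20 and cldn8.1 0.51, 0.71 and 0.50 with detected accessions, with the erythrocyte and endothelium sum and without those mutants, and cldn8.1 was called higher with detected accessions and was 0.20 with the epidermis sum. cldn7b was -0.50 and cldne -0.0838 with voom quality weights. Without 1 library cldnb ran from -0.20 to 0.0615, cldn7b from -0.10 to 0.16 and cldn8.1 from -0.26 to 0.0357. The cause was not tested.

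Of all accessions 2474 were called, 71.1% of them higher. The share was 58.6% with library sizes from accessions of at most 1000 counts, an alternative chosen after seeing the data that moved the median of all genes by over 0.1, from 0.04 to -0.06, and under it cldn7a was not called. The count was 3962 with no filter, 4277 with DESeq2, 5566 with voom quality weights (55.4% higher), 1351 with the replicate block, 1281 with detected accessions, 113 with the epidermis sum, 763 with the erythrocyte and endothelium sum, 512 without those 4 mutants, 1029 at the stricter threshold and 1622 to 3390 without 1 library. Same-numbered libraries deviated together with correlations of -0.55 to 0.27 over 7 numbers, and 2 of 7 mutants correlated best with their own number. These correlations cannot show whether same-numbered libraries shared a clutch or a day, so that any pairing is unknown. The replicate block called cldnf and cldn8.2 and did not call cldn7a or cldn34a.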

Other observations

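Lists of tissues not used beside a claudin above were summed too. The erythrocyte list was at 510.3 to 6048 CPM in mutants and 81.7 to 2914 CPM in siblings, and sibling 1 was the only sibling above 140.2 CPM. Its median log2 fold change was 2.07, and edgeR called 1 gene of 6 tested higher, beside 13.6% of all tested accessions. In that list 5 genes were higher at an unadjusted p under 0.05, 4 in DESeq2 and 5 in limma. Skeletal muscle genes were at 438 to 4018 CPM in mutants and 677 to 14775 CPM in siblings, with 0 of 13 called by edgeR. At an unadjusted p under 0.05 there were 6 lower muscle genes, and DESeq2 called 2 lower and limma 1 higher. myhz1.1, myhz2 and desma had 0 counts in every mutant, as had all accessions not listed for mutants (32441 of 33298 were listed). Neuron and glia genes were at 29.1 to 121 CPM in mutants and 16.9 to 137 CPM in siblings (0 of 3 called by edgeR, 1 higher at an unadjusted p under 0.05, 3 in DESeq2 and 1 in limma), and ear and lateral line genes at 10.8 to 37.5 CPM in mutants and 3.71 to 29.2 CPM in siblings (0 of 2 called by edgeR, 0 at an unadjusted p under 0.05, 2 higher in DESeq2 and 0 in limma).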
